A study of Mus musculus with 12 samples.

Results

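The S100 genes encode small calcium-binding proteins, and 10 of them were described here in pillar cells and Deiters' cells, supporting cells of the mouse organ of Corti: S100a1, S100a4, S100a6, S100a8, S100a9, S100a10, S100a11, S100a13, S100a16 and S100b. They were chosen by symbol out of the 48440 features of the table, with their values in these libraries known, and S100a1 was chosen because it had the highest value of all genes in both cell types. Levels and ranks are therefore a description without a test, and the tests of these genes between the cell types are no independent evidence. All 10 passed the filter on low values, a mean above 0.1 RPKM (reads for each kilobase of a transcript, scaled to the mapped reads of the library) in either cell type.

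Single cells were picked by their shape with a suction pipette from the enzyme-treated organ of Corti of CBA/J mice aged 28 to 32 days, with no reporter gene and no treatment. Each library was made from about 1000 pillar cells or about 1000 Deiters' cells, and there were 3 libraries per cell type, described as biological replicates. Each library pooled cells of several mice, and by the study's methods both cell types were taken from an animal, so libraries of the cell types may share mice, and which do is not stated. Every library was sequenced in 2 lanes, whose values were averaged, so that n = 3 in each cell type. A depth of 18641354 to 21557584 reads per library was inferred from the RPKM values and exon lengths. It is below the depth stated in the study's methods, and whether the unit counted is a read or a read pair is not known. On this scale 1 read in a transcript of 1 kb stood for 0.052 RPKM at the median library.

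S100 proteins form dimers, and calcium makes most of them expose a surface that binds other proteins, among them annexins and cytoskeletal proteins. Some also act outside the cell through receptors such as the product of Ager. In the cochlea, antibodies to S100 proteins are widely used to mark supporting cells, and S100A1 antibodies in particular label Deiters' and pillar cells.

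Calls were made with limma over 17188 genes and needed a Benjamini-Hochberg adjusted p no higher than 0.01 together with a 2-fold or larger difference on the log2(RPKM + 0.1) scale. The labels were set against markers of both cell types in the same way. Of 8 tested pillar cell markers, 3 were called higher in pillar cells (S100b, S100a6 and Bmp2) and 2 in Deiters' cells (Cryab and Npy). Bmp2 passed the filter only through pillar cells and Npy only through Deiters' cells, so their calls are given as a description. S100b and S100a6 are among the 10 genes described here, chosen with their values known, and give the label no separate support. In 4 of the 8, Cryab, Npy, Tuba1b and Tubb4b, every Deiters' cell library was above every pillar cell library, and in 4 the reverse held. Ngfr, the p75 receptor that marks pillar cells, was at or near 0, with 0.0143, 0 and 0.0305 RPKM in pillar cells, against 0.0136, 0.105 and 0.124 RPKM in Deiters' cells. Of 7 tested Deiters' cell markers, none was called higher in pillar cells and 3 were called higher in Deiters' cells. A further 3 of the 7, Fgfr3, Kcnj10 and Prox1, went the other way, with every pillar cell library above every Deiters' cell library. Their log2 differences were under the 2-fold limit (0.70 for Fgfr3, 0.42 for Kcnj10 and 0.94 for Prox1). Fgfr3 is in the marker lists of both cell types, so its value counts for or against neither label. Prox1 is also in a list of general supporting cell markers. All 10 tested hair cell markers were called higher in the pillar cell libraries, against 14.7% of all genes tested. Their summed level was 462 to 495 RPKM in pillar cells, against 99.7 to 106 RPKM in Deiters' cells. Atoh1 was at 0 in every library. The part of RNA from hair cells in the values below was not tested.

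By this definition 5 of the 10 S100 genes were called higher in pillar cells, against 14.7% of all genes tested. These were S100a6, S100a4, S100b, S100a9 and S100a8. In Deiters' cells 2 of the 10 were called higher, S100a13 and S100a1, against 14% of all genes. The remaining 3, S100a10, S100a11 and S100a16, differed by less than 2-fold. All 10 had an adjusted p of at most 0.01, but so did 61.9% of all genes. In all 10 the libraries of the cell types did not overlap, which held for 76.5% of all genes. As the genes were chosen with these differences known, nothing is read from their counts against these shares. A higher value can come from more RNA per cell or from more cells that hold the RNA, and bulk libraries cannot tell these apart.

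**Figure D1:**
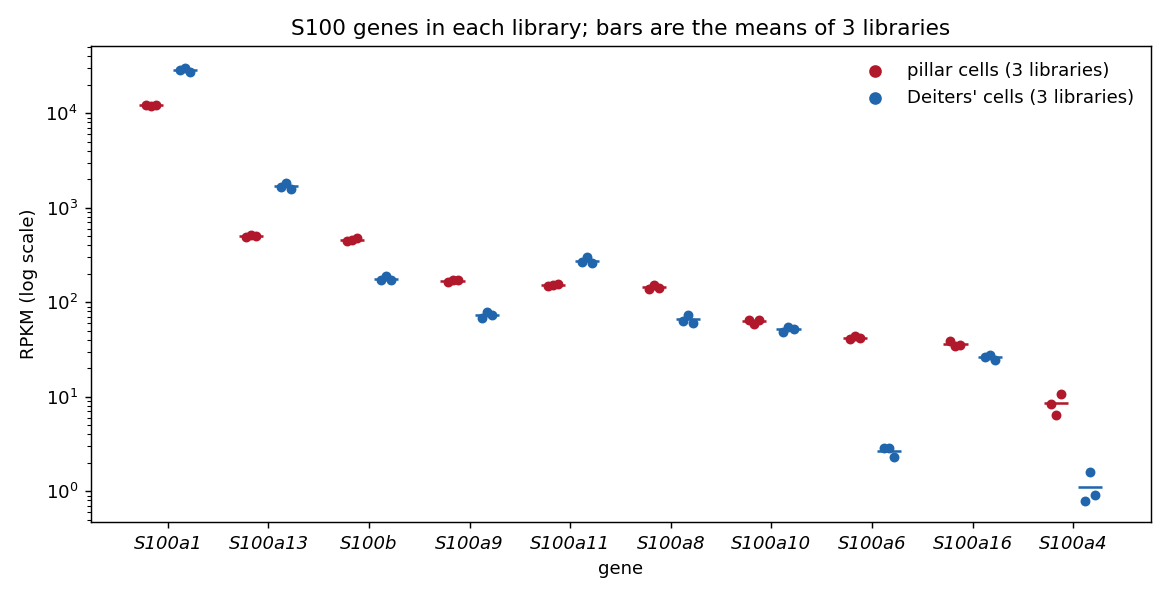
RPKM (log scale) of the 10 S100 genes in each of the 3 pillar cell libraries (red) and 3 Deiters' cell libraries (blue), with a bar at the mean, ordered by the pillar cell mean. S100a1 stands above all others at 12132 RPKM in pillar cells, against 28795 RPKM in Deiters' cells, and the points of the cell types do not overlap for any gene.

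S100a1 encodes a calcium sensor that in muscle binds the ryanodine receptor and the calcium pump of the sarcoplasmic reticulum. It had 12245, 12072 and 12078 RPKM in the 3 pillar cell libraries, against 28585, 30415 and 27386 RPKM in the 3 Deiters' cell libraries. Every Deiters' cell library was above every pillar cell library, and S100a1 ranked 1 in each of the 6 libraries. The means were 12132 ± 97.9 RPKM in pillar cells, against 28795 ± 1525 RPKM in Deiters' cells (SD, n = 3 each), a level 2.37-fold higher in Deiters' cells. The log2 difference, pillar cells minus Deiters' cells, was -1.25 ± 0.05 (SE, limma adjusted p = 1.97e-06). Fbxo2, an F-box gene expressed in supporting cells, ranked 2 in both. The ratio of S100a1 to Fbxo2 was 1.07 ± 0.0221 in pillar cells, against 1.89 ± 0.0701 in Deiters' cells.

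The reads behind these values were worked out from the RPKM, the exon length and the inferred lane depth. S100a1 had 171572, 160030 and 160718 reads in pillar cells, and 427643, 406692 and 354294 reads in Deiters' cells. These reads were 0.838% to 0.850% of the reads of a pillar cell library and 1.90% to 2.11% of those of a Deiters' cell library. As a share of the summed RPKM of all features, which corrects for length, S100a1 made up 3.06 ± 0.0247% in pillar cells, against 7.06 ± 0.274% in Deiters' cells. Counting error is below the spread between libraries at this depth, a coefficient of variation of 0.247% against 0.807% measured in pillar cells and of 0.159% against 5.30% measured in Deiters' cells.

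S100a1 carried most of the family's signal in both cell types. The 10 genes summed to 13706 ± 65.8 RPKM in pillar cells, against 31158 ± 1714 RPKM in Deiters' cells, which was 3.46% of all RPKM in pillar cells, against 7.63% in Deiters' cells. S100a1 made up 88.5 ± 0.295% of that sum in pillar cells, against 92.4 ± 0.195% in Deiters' cells. Without S100a1, the other 9 genes summed to 1574 ± 33.4 RPKM in pillar cells, against 2363 ± 190 RPKM in Deiters' cells (SD, n = 3).

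S100a13, whose product takes part in the release of FGF1, a growth factor that lacks a signal peptide, was the second most abundant of the 10 genes in both cell types. It had 487, 512 and 504 RPKM in pillar cells, against 1660, 1844 and 1564 RPKM in Deiters' cells. The lowest Deiters' cell library was above the highest pillar cell library. The means of 501 ± 12.9 RPKM in pillar cells and of 1689 ± 142 RPKM in Deiters' cells differed by 3.37-fold, and the log2 difference was -1.75 ± 0.06 (SE, limma adjusted p = 1.47e-06). S100a13 ranked 82 among all features in pillar cells, against 18 in Deiters' cells. Its ratio to S100a1 was 0.0413 ± 0.00138 in pillar cells, against 0.0586 ± 0.00182 in Deiters' cells, so that it differed more than S100a1 did. Fgf1, the growth factor released with S100A13, was also called higher in Deiters' cells, with 8.63, 9.10 and 8.59 RPKM in pillar cells, against 20.9, 21.2 and 20.6 RPKM in Deiters' cells (log2 difference -1.24 ± 0.04, limma adjusted p = 8.02e-07).

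S100a1 and S100a13 lie back to back on chromosome 3 (GRCm38). S100a1 runs on the minus strand at chr3:90511034-90514392 and S100a13 on the plus strand at chr3:90514435-90524581, so that 42 bases separate the annotated genes. In RefSeq (GRCm38.p6) their start sites are 105 bases apart, and the windows of 250 bases before to 50 bases after each start overlap by 204 bases. The S100a13 window is printed because it holds the start sites of both genes called higher in Deiters' cells, in one stretch of DNA. It is chr3:90514185-90514484 on the plus strand, and capitals mark the 104 bases between the start sites, with S100a1 starting at base 146 on the other strand and S100a13 at base 251.
S100a13: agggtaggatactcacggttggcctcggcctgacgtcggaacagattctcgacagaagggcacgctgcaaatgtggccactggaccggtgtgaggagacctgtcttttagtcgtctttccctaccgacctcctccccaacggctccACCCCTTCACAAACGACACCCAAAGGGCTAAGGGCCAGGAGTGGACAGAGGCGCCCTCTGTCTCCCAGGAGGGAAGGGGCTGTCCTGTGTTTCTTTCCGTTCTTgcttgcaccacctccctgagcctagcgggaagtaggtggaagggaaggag
Each window of 300 bases was searched on both strands for 5 short motifs. The TATA box was searched as TATAAA. The CCAAT box was searched by the letters of its name. The GC box, which factors of the SP1 family bind, was searched as GGGCGG. The AP-1 site was searched as TGANTCA, and the E-box as CANNTG. Neither the S100a1 nor the S100a13 window held any of the first 4. The E-box, which occurs in 72.3% of all windows, was found in that of S100a13 but not in that of S100a1. Both were richer in G and C than the median of 32851 RefSeq windows, with 61.0% for S100a1 and 59.3% for S100a13 against 52.7%. They held 11 and 14 CG pairs, against a median of 7.

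S100a6, called calcyclin after its growth-dependent expression, had the largest difference of the 10 genes. It had 40.9, 43.8 and 42.0 RPKM in pillar cells, against 2.89, 2.89 and 2.31 RPKM in Deiters' cells. Every pillar cell library was above 40 RPKM, and no Deiters' cell library reached 3 RPKM. The means were 42.2 ± 1.5 RPKM in pillar cells, against 2.70 ± 0.330 RPKM in Deiters' cells, a 15.7-fold difference with a log2 difference of 3.93 ± 0.09 (SE, limma adjusted p = 3.33e-07). The Deiters' cell values rest on 85, 76 and 59 reads, and those of pillar cells on 1128, 1145 and 1100 reads. S100a6 ranked 1489 in pillar cells, against 8665 in Deiters' cells. Cacybp, which encodes the calcyclin-binding protein, had a log2 difference of 0.18 ± 0.03 and was not called.

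S100b, a glial gene whose product binds p53 and the kinase STK38, was the third most abundant S100 gene in pillar cells. It had 446, 454 and 474 RPKM in pillar cells, against 173, 189 and 170 RPKM in Deiters' cells, and the libraries did not overlap. The means of 458 ± 14.7 RPKM in pillar cells and of 177 ± 10.3 RPKM in Deiters' cells differed by 2.58-fold, with a log2 difference of 1.37 ± 0.05 (SE, limma adjusted p = 1.39e-06). S100b is the only one of the 10 genes outside chromosome 3, at chr10:76253853-76261159 on the plus strand. It can form dimers with S100A1, and its ratio to S100a1 was 0.0378 ± 0.00143 in pillar cells, against 0.00616 ± 9.34e-05 in Deiters' cells.

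Schwann and glial cell markers were examined beside S100b. Of 8 tested, 2 were called higher in pillar cells, against 14.7% of all genes, and 1 was called higher in Deiters' cells, against 14%. Their summed level was 81.1 to 89.3 RPKM in pillar cells, against 85.9 to 90.3 RPKM in Deiters' cells. Most of that sum was Sox10, at 58.9 ± 3.33 RPKM in pillar cells, against 66.1 ± 2.35 RPKM in Deiters' cells. S100b was above the sum of these markers in every library of both cell types. Such a comparison of levels between genes does not give the part of RNA from glial cells. The part of glial cells in the S100b values was not tested.

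S100a8 and S100a9 encode the subunits of calprotectin, a protein that neutrophils and monocytes hold in large amounts. S100a8 had 138, 150 and 143 RPKM in pillar cells, against 63.1, 74.0 and 60.6 RPKM in Deiters' cells. S100a9 had 165, 173 and 171 RPKM in pillar cells, against 68.6, 79.6 and 73.2 RPKM in Deiters' cells. In both genes every pillar cell library was above every Deiters' cell library. S100a8 averaged 144 ± 6.23 RPKM in pillar cells, against 65.9 ± 7.10 RPKM in Deiters' cells, a 2.18-fold difference with a log2 difference of 1.13 ± 0.08 (SE, limma adjusted p = 2.55e-05). S100a9 averaged 170 ± 4.38 RPKM in pillar cells, against 73.8 ± 5.50 RPKM in Deiters' cells, a 2.30-fold difference with a log2 difference of 1.20 ± 0.06 (SE, limma adjusted p = 4.60e-06). The genes kept nearly the same proportion to each other in both cell types, with S100a9 at 1.18 ± 0.0236 times S100a8 in pillar cells, against 1.12 ± 0.0731 times in Deiters' cells. The ranges of that ratio over libraries overlapped.

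Markers of neutrophils and macrophages moved with the calprotectin genes in part. Of 14 tested neutrophil markers, 8 were called higher in pillar cells and 3 were called higher in Deiters' cells, and the summed level was 238 to 245 RPKM in pillar cells, against 141 to 148 RPKM in Deiters' cells. Ngp, a granule protein gene, had 125, 127 and 130 RPKM in pillar cells, against 7.20, 8.41 and 10.1 RPKM in Deiters' cells. Elane and Mpo, genes of the primary granules, went the other way, and so did Prtn3. Ctsg did not, with 3.50 ± 0.737 RPKM in pillar cells, against 2.72 ± 0.312 RPKM in Deiters' cells. Its libraries overlapped and it was not called. Elane had 10.1 ± 0.746 RPKM in pillar cells, against 58.4 ± 1.11 RPKM in Deiters' cells, and Mpo had 6.96 ± 0.522 RPKM in pillar cells, against 39.4 ± 1.04 RPKM in Deiters' cells. Ly6g, a surface marker of mature neutrophils, had 3.52 ± 0.208 RPKM in pillar cells, against 0.624 ± 0.243 RPKM in Deiters' cells. Of 10 tested macrophage markers, 5 were called higher in pillar cells and none was called higher in Deiters' cells. Among the 5, Adgre1 and Mrc1 passed the filter only through pillar cells. The summed level of the macrophage markers was 117 to 123 RPKM in pillar cells, against 59.5 to 61.4 RPKM in Deiters' cells. Most of it was Lyz2, also a gene of neutrophils, at 101 ± 3.27 RPKM in pillar cells, against 42.8 ± 1.61 RPKM in Deiters' cells. The part of blood-derived cells in the S100a8 and S100a9 values was not tested.

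S100a4, known from fibroblasts and motile cells, where its product binds nonmuscle myosin, was the least abundant of the 10 genes in both cell types. It had 8.32, 6.46 and 10.7 RPKM in pillar cells, against 0.796, 1.60 and 0.918 RPKM in Deiters' cells. The lowest pillar cell library was above the highest Deiters' cell library. The means of 8.50 ± 2.14 RPKM in pillar cells and of 1.10 ± 0.434 RPKM in Deiters' cells differed by 7.70-fold, with a log2 difference of 2.86 ± 0.28 (SE, limma adjusted p = 0.000135). Its reads were few, 98, 72 and 120 in pillar cells, against 10, 18 and 10 in Deiters' cells, and its standard error was the widest of the 10. The exons of S100a4 overlap those of the predicted gene Gm42674 on the same strand by 302 bases, so reads there cannot be assigned to one of them. Gm42674 had 2.66, 3.98 and 3.13 RPKM in pillar cells, against 0.103, 0.116 and 0 RPKM in Deiters' cells.

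Most fibroblast markers had higher values in pillar cells, as S100a4 did. Of 8 tested, 6 had every pillar cell library above every Deiters' cell library and 2 the reverse. The libraries did not overlap in 76.5% of all genes tested, so little is read from this separation. The median log2 difference of the list was 0.69. By the 2-fold rule 3 were called higher in pillar cells, against 14.7% of all genes, and 1 was called higher in Deiters' cells, against 14%. Dcn, a matrix proteoglycan gene, had 138 ± 1.33 RPKM in pillar cells, against 52.0 ± 1.22 RPKM in Deiters' cells, and Postn, the gene of periostin, had 2.27 ± 0.126 RPKM in pillar cells, against 0.580 ± 0.0117 RPKM in Deiters' cells. The summed level went the other way, with 444 to 449 RPKM in pillar cells, against 929 to 967 RPKM in Deiters' cells, most of it Lum at 270 ± 2.09 RPKM in pillar cells, against 851 ± 20.3 RPKM in Deiters' cells. Myh9, the nonmuscle myosin heavy chain gene, had 1.67 ± 0.0788 RPKM in pillar cells, against 1.26 ± 0.0759 RPKM in Deiters' cells, and was not called. The part of fibroblasts in the S100a4 values was not tested.

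The promoter windows of S100a4, S100a8 and S100a9 are printed because all 3 held TATAAA, a match in 3 of the 9 genes with a window and in 13.6% of all windows. All 3 genes were higher in pillar cells, but S100a6 and S100b, also higher there, held no TATAAA. The windows are chr3:90603520-90603819 (plus strand) for S100a4, chr3:90668821-90669120 (plus strand) for S100a8 and chr3:90695672-90695971 (minus strand) for S100a9. Capitals mark TATAAA and, near the beginning of the S100a9 window, GGGCGG.
S100a4: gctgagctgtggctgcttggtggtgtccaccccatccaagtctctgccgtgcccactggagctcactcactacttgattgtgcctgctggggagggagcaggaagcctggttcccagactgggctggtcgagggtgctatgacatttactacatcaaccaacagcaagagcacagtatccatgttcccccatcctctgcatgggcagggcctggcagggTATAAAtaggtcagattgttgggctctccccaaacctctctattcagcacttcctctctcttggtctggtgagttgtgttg
S100a8: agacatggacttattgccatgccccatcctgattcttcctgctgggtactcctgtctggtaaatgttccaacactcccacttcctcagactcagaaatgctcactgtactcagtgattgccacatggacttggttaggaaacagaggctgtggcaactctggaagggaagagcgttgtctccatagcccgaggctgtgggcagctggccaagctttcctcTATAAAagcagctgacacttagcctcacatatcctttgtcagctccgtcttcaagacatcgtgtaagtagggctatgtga
S100a9: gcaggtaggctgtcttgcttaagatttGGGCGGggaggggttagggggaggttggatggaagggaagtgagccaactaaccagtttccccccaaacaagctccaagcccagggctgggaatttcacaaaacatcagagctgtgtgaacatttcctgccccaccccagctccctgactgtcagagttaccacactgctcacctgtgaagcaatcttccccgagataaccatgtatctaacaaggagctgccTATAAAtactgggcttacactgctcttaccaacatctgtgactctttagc
Counted from the RefSeq start, whose first transcribed base is 1, TATAAA began at base -31 in S100a4, at base -30 in S100a8 and at base 1 in S100a9. CCAAT was found in the windows of S100a6 and S100b, against 37.4% of all windows. GGGCGG was found in those of S100a9, S100a11 and S100a16, against 35.7% of all windows. TGANTCA was found in those of S100a11 and S100a16, against 7.81% of all windows. S100a16 has more than 1 window, and only that at chr3:90540896-90541195 held GGGCGG and TGANTCA. Matches are given here by gene, while the shares are of windows. The E-box was found in 7 of the 9 genes with a window. A match is a description of letters and shows no binding. S100a10 is not in the table of windows.

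S100a11, S100a10 and S100a16 differed less. S100a11, whose product binds annexin A1, had 148, 154 and 155 RPKM in pillar cells, against 266, 301 and 258 RPKM in Deiters' cells. Its means of 152 ± 3.56 RPKM in pillar cells and of 275 ± 22.4 RPKM in Deiters' cells differed by 1.81-fold, with a log2 difference of -0.85 ± 0.06 (SE, limma adjusted p = 2.48e-05). The difference was larger than the spread between libraries but under the 2-fold limit. Of the 100-base words of the S100a11 exons, 34.0% also occur in the pseudogenes Gm12854 and Gm7665, so that reads could be split between them. Gm12854 was at 0, and Gm7665 had 3.86 ± 0.622 RPKM in pillar cells, against 8.79 ± 0.866 RPKM in Deiters' cells.

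S100a10, a member that has lost calcium binding and pairs with annexin A2, had 65.3, 59.0 and 65.0 RPKM in pillar cells, against 47.9, 54.6 and 51.9 RPKM in Deiters' cells. The cell types were separated by a narrow gap, with means of 63.1 ± 3.55 RPKM in pillar cells and of 51.5 ± 3.37 RPKM in Deiters' cells. The log2 difference was 0.29 ± 0.06 (SE, limma adjusted p = 0.0045), and the adjusted p was above 0.01 in 8 of 16 alternative settings, reaching 0.0529 when libraries were scaled by their median. S100a16, a broadly expressed member, had 38.4, 34.3 and 35.7 RPKM in pillar cells, against 26.5, 27.6 and 24.6 RPKM in Deiters' cells. Its means were 36.1 ± 2.09 RPKM in pillar cells, against 26.2 ± 1.54 RPKM in Deiters' cells, with a log2 difference of 0.46 ± 0.06 (SE, limma adjusted p = 0.000459).

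**Figure D2:**
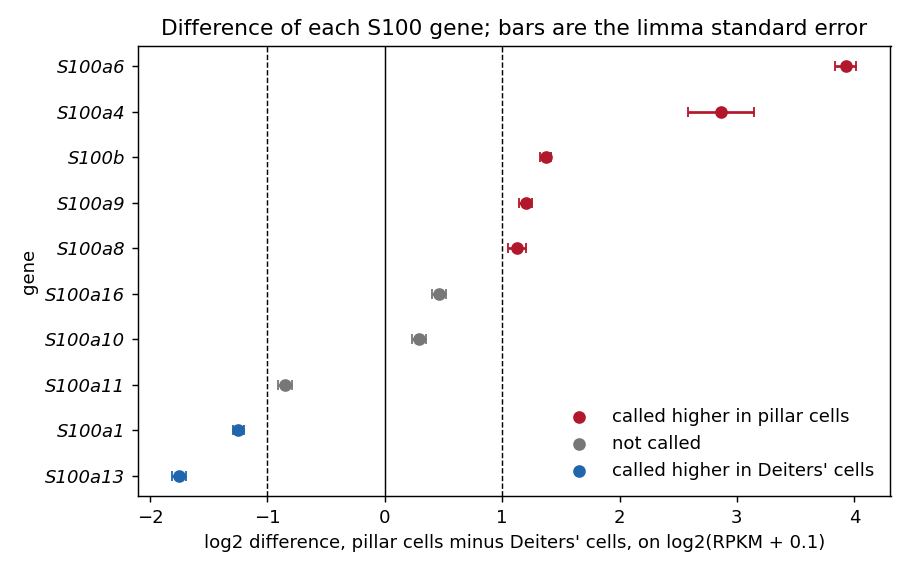
Log2 difference of each S100 gene, pillar cells minus Deiters' cells, on the log2(RPKM + 0.1) scale, with the limma standard error; dashed lines mark 2-fold. The 5 genes called higher in pillar cells (red) lie between 1.13 and 3.93, the 2 called higher in Deiters' cells (blue) lie at -1.75 and -1.25, and 3 were not called (grey).

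The order of levels differed between the cell types. In pillar cells it was S100a1, S100a13, S100b, S100a9, S100a11, S100a8, S100a10, S100a6, S100a16 and S100a4. In Deiters' cells it was S100a1, S100a13, S100a11, S100b, S100a9, S100a8, S100a10, S100a16, S100a6 and S100a4. Neighbours in these orders did not overlap in their libraries, except S100a11 and S100a8 in pillar cells and S100a9 and S100a8 in Deiters' cells. The order depends on the length used for each gene. With the length of the principal transcript, an alternative added after the data were seen, 3 genes changed place in each cell type. S100a8, S100a9 and S100a11 then took places 4, 5 and 6 in pillar cells, and S100a8, S100a10 and S100a9 took places 5, 6 and 7 in Deiters' cells.

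The spread between libraries was larger in Deiters' cells than in pillar cells for each of the 10 genes, from 5.30% for S100a1 to 39.3% for S100a4 as a coefficient of variation. Deiters' cell library 2 was the highest of the 3 for 9 of the 10 genes. The exception was S100a6, for which library 1 was highest by a margin below 0.01 RPKM. Of 272 genes above 10 RPKM with an exon length under 1 kb, library 2 was the highest Deiters' cell library in 69.9%, against 26.5% of 4426 longer genes. Not all of the 10 genes are under 1 kb: the exon length was 1212 bases for S100a10, 1367 for S100a6, 1484 for S100b and 1617 for S100a16. The median coefficient of variation of genes above 10 RPKM and under 1 kb was 5.55% in pillar cells, against 7.59% in Deiters' cells, and that of longer genes was 3.10% in pillar cells, against 3.36% in Deiters' cells. Without Deiters' cell library 2, the log2 difference was -1.21 for S100a1, -1.69 for S100a13, -0.79 for S100a11 and 1.21 for S100a8, and the same numbers of the 10 genes were called, 5 and 2.

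**Figure D3:**
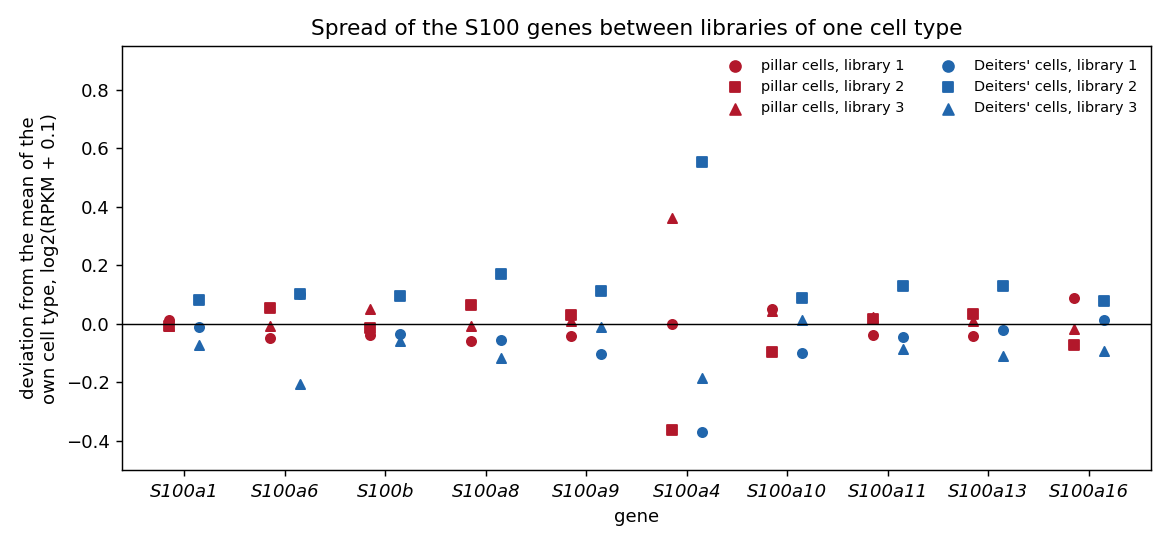
Deviation of each library from the mean of its own cell type on the log2(RPKM + 0.1) scale for the 10 S100 genes, with pillar cells in red and Deiters' cells in blue and a symbol for each library number. The blue squares, Deiters' cell library 2, lie above the other Deiters' cell libraries for 9 of the 10 genes, and S100a4, with 72 to 120 reads in pillar cells, against 10 to 18 in Deiters' cells, has the widest spread.

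Of the 10 genes, 9 lie on chromosome 3, and 7 of these fall within 181 kb counted from the S100a1 start to the S100a9 start. S100a11 and S100a10 lie 2825 kb beyond S100a9 and 28.8 kb from each other. Of the 10 genes, those of the main cluster called higher in Deiters' cells were at the S100a1 end and those called higher in pillar cells were 89.4 kb or more away. S100a16, 22.9 kb from the S100a1 start, was called in neither. Outside the cluster, next to S100a1, the neighbouring genes were not called. Chtop had a log2 difference of -0.82 ± 0.04, Snapin of -0.46 ± 0.03 and Ilf2 of -0.05 ± 0.05.

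**Figure D4:**
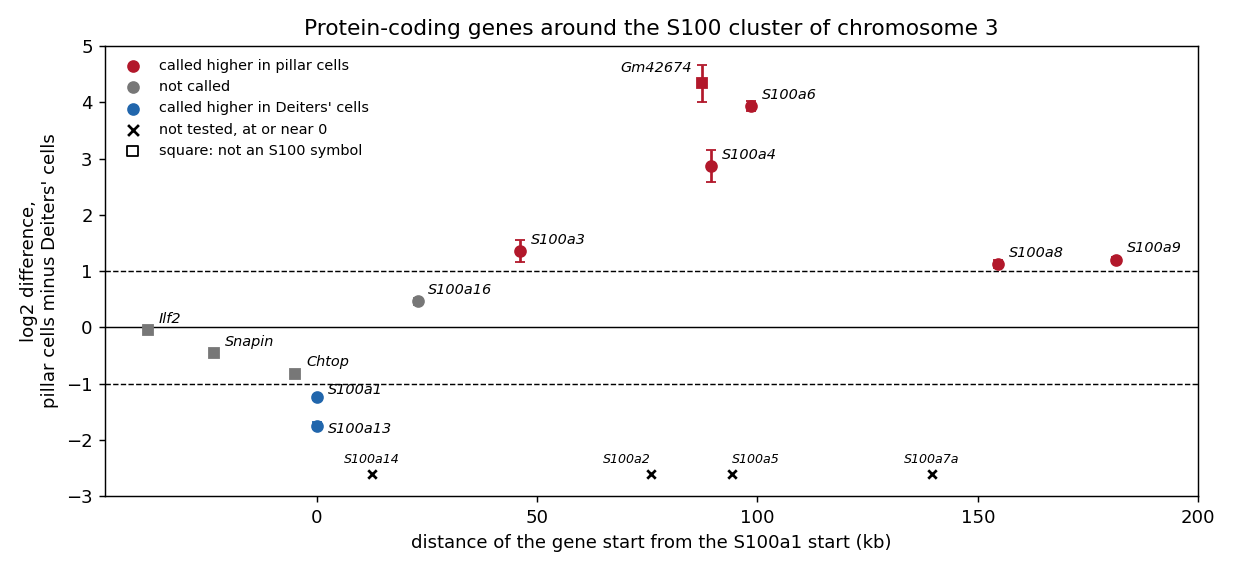
Log2 difference, pillar cells minus Deiters' cells, with the limma standard error, against the distance of the gene start from the S100a1 start in kb, for protein-coding genes of the S100 cluster. S100a1 and S100a13 lie below -1 at the left, while S100a4, S100a6, S100a8 and S100a9 lie above 1 from 89.4 kb on, as does S100a3, a low gene nearer to S100a1; crosses are genes at or near 0 that were not tested and have no difference.

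The other S100 genes were at or near the limit of detection. Of 7 further S100 genes in the table, 5 were at 0 in every library, and S100a14 had 0.0602 RPKM in Deiters' cell library 2 alone. S100a3, known from hair follicles, had 0.140, 0.215 and 0.121 RPKM in pillar cells and 0 RPKM in every Deiters' cell library. Taken as the smallest whole numbers that fit the lanes, these values stood for 11, 16 and 9 reads in pillar cells and 0 reads in each Deiters' cell library. S100a3 passed the filter only through pillar cells, so its call as higher there is given as a description (log2 difference 1.35 ± 0.19). The size of that difference depends on the pseudocount. With a pseudocount of 0.01 RPKM the log2 difference of S100a3 was 4.04. With a pseudocount of 1 RPKM it was 0.21 and the gene was not called. The least abundant of the 10 genes, S100a4, was at 6.46 RPKM or more in pillar cells. Among the fused-type genes, which join an S100 domain to a long repeat, only Tchh (trichohyalin) was tested. It had 1.33, 1.17 and 1.44 RPKM in pillar cells, against 2.02, 2.0 and 2.06 RPKM in Deiters' cells, with a log2 difference of -0.60 ± 0.10, and was not called.

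Genes of proteins that S100 proteins bind inside the cell were examined as a list of 18, of which 16 were tested. In pillar cells 3 were called higher, against 14.7% of all genes, and in Deiters' cells 2 were called higher, against 14% of all genes. These shares are near the background. The median log2 difference was -0.14, against 0.00074 over all genes tested. Annexins, proteins that bind membranes in the presence of calcium, supplied 3 of these 5 genes and 6 of the 18 in the list. Anxa1, the partner of S100A11, had 48.2, 49.7 and 50.5 RPKM in pillar cells, against 13.8, 13.3 and 14.4 RPKM in Deiters' cells (log2 difference 1.83 ± 0.04, limma adjusted p = 2.74e-07). Anxa5 had 1496, 1492 and 1465 RPKM in pillar cells, against 539, 535 and 542 RPKM in Deiters' cells (log2 difference 1.46 ± 0.02, limma adjusted p = 7.00e-08). Anxa2, the partner of S100A10, had 175, 172 and 173 RPKM in pillar cells, against 437, 431 and 429 RPKM in Deiters' cells (log2 difference -1.32 ± 0.02, limma adjusted p = 8.48e-08). The other 3 annexin genes were not called, and their log2 differences were -0.69 ± 0.03 for Anxa6, -0.97 ± 0.03 for Anxa7 and -0.74 ± 0.12 for Anxa11, with every Deiters' cell library above every pillar cell library. The gene pairs whose products bind each other therefore differed in proportion. S100a11 was 3.08 ± 0.0158 times Anxa1 in pillar cells, against 19.95 ± 2.45 times in Deiters' cells. S100a10 was 0.364 ± 0.0182 times Anxa2 in pillar cells, against 0.119 ± 0.00867 times in Deiters' cells.

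The other called target genes were Fgf1, given above, and Syt1, a calcium sensor of vesicle release and part of the complex that releases FGF1. Syt1 had 0.368, 0.295 and 0.369 RPKM in pillar cells, against 0.1005, 0.0808 and 0.129 RPKM in Deiters' cells (log2 difference 1.13 ± 0.16, limma adjusted p = 0.000854). S100a13 and Fgf1 were thus higher in Deiters' cells, and Syt1 was higher in pillar cells at a level below 1 RPKM in both. With a pseudocount of 1 RPKM the log2 difference of Syt1 was 0.28 and it was not called. The muscle targets of S100A1, the ryanodine receptor genes Ryr1 and Ryr2, were below 0.01 RPKM in every library. Atp2a2, the calcium pump gene, had 17.9 ± 0.371 RPKM in pillar cells, against 19.4 ± 0.424 RPKM in Deiters' cells, and was not called.

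Of 4 receptor genes, 3 were tested, and 2 were called higher in Deiters' cells, against 14% of all genes. Little is read from a count over 3 genes. Ager, which encodes the receptor RAGE bound by S100B and calprotectin, had 0.347, 0.414 and 0.439 RPKM in pillar cells, against 1.02, 1.60 and 1.18 RPKM in Deiters' cells (log2 difference -1.43 ± 0.18, limma adjusted p = 0.000449), a call that was lost with a pseudocount of 1 RPKM (log2 difference -0.69). Tlr4, another receptor of calprotectin, had 0, 0.0095 and 0 RPKM in pillar cells, against 1.68, 1.46 and 1.60 RPKM in Deiters' cells. It passed the filter only through Deiters' cells, so its call is given as a description. Its log2 difference depends on the pseudocount, with -4.02 at 0.1 RPKM and -1.36 at 1 RPKM. The calprotectin genes, chosen with their values known, were higher in pillar cells, and both of these receptor genes were higher in Deiters' cells. A relation between these differences was not tested. Bsg, the gene of basigin, was the most abundant receptor gene, with 516, 496 and 498 RPKM in pillar cells, against 977, 971 and 978 RPKM in Deiters' cells (log2 difference -0.95 ± 0.02, limma adjusted p = 4.60e-07), and was short of the 2-fold limit, which it passed with median scaling (log2 difference -1.08). Cd36 was at 0 in every library.

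**Figure D5:**
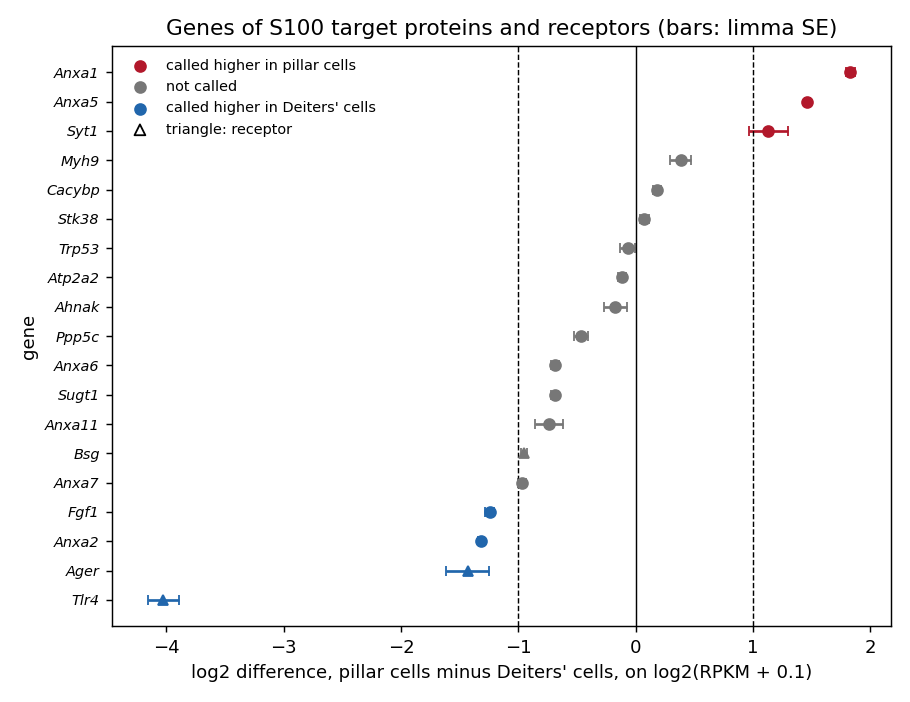
Log2 difference, pillar cells minus Deiters' cells, on the log2(RPKM + 0.1) scale with the limma standard error for 16 target genes (circles) and 3 receptor genes (triangles); dashed lines mark 2-fold. Anxa1, Anxa5 and Syt1 lie above 1, and Fgf1, Anxa2, Ager and Tlr4 lie below -1, with Tlr4, at or near 0 in pillar cells, farthest out.

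The genes most like S100a1 over the 6 libraries were sought among 721 genes above 100 RPKM by Pearson's r of log2(RPKM + 0.1). S100a13 was among the 5 with the highest r, beside Nupr1, Atp5g3, Stmn1 and Atox1, with r of 0.9993 for S100a13 and 0.9998 for Nupr1. The 6 points form 2 groups, the cell types, and the difference between them sets most of r, which was above 0.99 for 156 of the 721 genes. Atox1, a copper chaperone gene, had 388 ± 2.76 RPKM in pillar cells, against 798 ± 48.5 RPKM in Deiters' cells, and like S100a1 was highest in Deiters' cell library 2.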

How the data were processed

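RPKM values of 48440 features in 12 lane columns were deposited by the authors, who used CLC Genomics Workbench and the mouse genome mm10 (GRCm38) for mapping. RPKM is scaled to mapped reads and exon length, so a gene that takes many reads lowers the share of the others, and the length used sets the level. cDNA came from a low-input amplification kit, and the release of the annotation is not given in the sources used here. The 2 lanes of a library were averaged, giving 3 libraries per cell type. The cell types were compared on log2(RPKM + 0.1) by limma 3.58.1 under R 4.3.3 (lmFit, eBayes with a trend) over 17188 genes with a mean above 0.1 RPKM, with Benjamini-Hochberg adjustment. An exact permutation of 3 against 3 libraries cannot go below a two-sided p of 0.1, so it was not used. Reads were RPKM times exon length (GENCODE M21) times the inferred lane depth, and were whole to 0.01 for all 10 genes. Those of S100a3 were instead the smallest whole numbers that fit its RPKM times lane depth over the lanes, without an exon length. Promoter windows came from RefSeq. The code was tested on simulated data. Genes named outside the S100 list were called, above 100 RPKM, most like S100a1, S100 family genes above 0.1 RPKM, or among the smallest p of a marker list; others (Fbxo2, Ngfr, Atoh1, Fgfr3, Kcnj10, Prox1, Anxa6, Anxa7, Anxa11, Cd36, Cacybp, Myh9, Atp2a2, Ryr1, Ryr2, Sox10, Ly6g, Gm42674, the pseudogenes and the neighbours of S100a1) were chosen after their values were seen. Ctsg was also named after its values were seen. The genes and lists were chosen with earlier results of these data known. Alternatives were other pseudocounts, filters, scalings, single lanes, left-out libraries, a replicate block and no variance trend.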

Additional observations from a re-analysis of the deposited data

How the results depend on the processing

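The counts of 5 S100 genes higher in pillar cells and 2 higher in Deiters' cells were the same under all 16 alternatives, and all 160 single values of these genes kept direction and call. Of 158 values of 10 other named genes, tried after the data were seen, 154 kept their call. The exceptions were S100a3, Syt1 and Ager with a pseudocount of 1 RPKM, and Bsg with median scaling. The log2 difference of S100a1 ranged over -1.37 to -1.20, and that of S100a8 over 1.01 to 1.21. S100a10 ranged over 0.17 to 0.34, with an adjusted p of 0.00237 to 0.0529, so 9 or 10 genes had an adjusted p of at most 0.01. Counts over all genes moved more. With a pseudocount of 1 RPKM, 1001 genes were called for pillar cells, against 778 for Deiters' cells, and with a filter at 1 RPKM, 1572 and 1224, against 2534 and 2404. Scaling libraries by their median moved the median of all genes by -0.12 on the log2 scale, and every S100 difference with it.

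The correlation of deviations was -0.273, 0.356 and 0.295 between libraries of the same number, against -0.396 to 0.329 between libraries of different numbers. Deviations are from the mean of the libraries of a cell type, so these values depend on each other. They cannot decide whether the library numbers pair the libraries or whether mice were shared. A fit with the replicate block called 5 and 2 of the S100 genes, and 2450 and 2253 of all genes. Depth limits S100a4 and S100a3, which rest on few reads.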
